A study of Mus musculus with 2 samples.

Results

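The nuclear genes of the respiratory chain were taken as all columns of the table whose symbols begin with Nduf (a, b, c, s or v and a number), Uqcr or Atp5, together with 11 named Cox genes. The rule found 76 members among 25663 genes: 36 of complex I, 8 of complex III, 11 of complex IV and 21 of complex V. They were described over 11871 epithelial cells of the small intestine, taken from E18.5 mouse embryos (late fetal stage). Cells were grouped by Fabp1 and Fabp6, fatty acid and bile acid binding proteins of enterocytes, and by Mki67 and Top2a, transcribed in dividing cells.

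The respiratory chain in the inner mitochondrial membrane passes electrons from NADH and succinate to oxygen and pumps protons. Complex I (NADH dehydrogenase), complex III (cytochrome bc1 complex) and complex IV (cytochrome c oxidase) pump protons, and complex V (ATP synthase) lets them flow back to make ATP. Most subunits are encoded in the nucleus, a few in mitochondrial DNA, and dedicated assembly factors put the complexes together. Enterocytes, the absorptive cells of the villus, use ATP to drive nutrient uptake.

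The study compared a Tet3 knockout library with a Control library. Tet3, an enzyme that oxidises methylated cytosine in DNA, had lost exon 5 in the knockout line, which leaves a premature stop in exon 6. The deletion was made in embryonic stem cells and passed through the germ line, so the allele was a constitutive one and not limited to a cell type. Both libraries carry the strain label C57BL6/J, and both were pools of sorted, methanol-fixed epithelial cells from 2 embryos each, prepared with 10x Genomics 3′ chemistry. Cell barcodes end in 0 (5933 cells, called set 0) or 1 (5938 cells, called set 1), and no label ties a suffix to a genotype, so the sets are compared by suffix only. Tet3 itself was not used to name them; 3′ tags lie outside the removed exon.

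Values are a linear signal scaled to 10000 per cell (CP10K), in which 1 unit is 1 in 10000 of the counted transcripts of a cell. Because 3′ tags are not scaled by gene length, differences in level between genes are not read as differences in amount; sums, shares and ratios of genes are of tags. All cells come from 1 pooled library per genotype and are not replicates, so no p-value is given. A difference is a log2 ratio of mean CP10K with 0.01 added. Genes reaching 0.2 CP10K in at least 1 of the groups compared were counted, and 1.5-fold was the size for calling a gene higher or lower. Of the 76 members, 71 reached that level in every comparison. The other 5 were Atp5s, a coupling factor gene, at 0.143 CP10K over all cells, a column Atp5o at 0.000 beside a second column of that symbol (Atp5o-1) at 14.1, and the pseudogenes Atp5l-ps1, Atp5l-ps2 and Atp5l2-ps.

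The cells were deep, with 22381 recovered UMIs in the median cell (1152 to 250632). All 10 enterocyte markers reached 0.2 CP10K even in cells with Fabp1 below 40, while the immune and tuft markers with a column (2 each) summed to at most 0.0019 and 0.0017 CP10K in the Fabp1 groups. Levels of mesenchymal, endothelial, neural and erythroid markers are not given here. In set 1, 818 cells carried a barcode of set 0. Of these, 97.1% fell in the same Fabp1 class as their partner, with a median of 13596 UMIs against 51368 in the partners. Set 1 was therefore used without them, as 5120 cells, whenever the sets are separated. No doublet caller was run.

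Promoters are shown for the c-ring genes of ATP synthase, which differ from each other in the results below. Atp5g1, Atp5g2 and Atp5g3 encode the same mature subunit c, the ring in the membrane that turns as protons pass. RefSeq promoters of GRCm38.p6, from 250 bases before to 50 after the start, matched 59 of the 76 members and gave 64 sequences. The windows lie at chr11:96075582-96075881, chr15:102670998-102671297 and chr2:73911277-73911576, all on the minus strand, and capitals mark an NRF1 motif. The Atp5g2 window lies inside the gene as annotated in GENCODE M21 (102662864 to 102672352), not at its upstream end.
Atp5g1: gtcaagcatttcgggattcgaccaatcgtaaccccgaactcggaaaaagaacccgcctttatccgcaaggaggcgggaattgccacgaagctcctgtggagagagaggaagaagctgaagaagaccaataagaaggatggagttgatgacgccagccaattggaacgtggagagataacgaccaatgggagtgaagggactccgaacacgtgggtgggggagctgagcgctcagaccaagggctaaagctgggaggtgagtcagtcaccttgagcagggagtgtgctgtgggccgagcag
Atp5g2: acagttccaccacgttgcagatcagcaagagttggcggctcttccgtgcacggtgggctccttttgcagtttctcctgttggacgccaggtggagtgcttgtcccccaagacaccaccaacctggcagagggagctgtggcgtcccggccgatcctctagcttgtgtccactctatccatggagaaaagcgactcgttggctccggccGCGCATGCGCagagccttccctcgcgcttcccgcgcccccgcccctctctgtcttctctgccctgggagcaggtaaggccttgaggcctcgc
Atp5g3: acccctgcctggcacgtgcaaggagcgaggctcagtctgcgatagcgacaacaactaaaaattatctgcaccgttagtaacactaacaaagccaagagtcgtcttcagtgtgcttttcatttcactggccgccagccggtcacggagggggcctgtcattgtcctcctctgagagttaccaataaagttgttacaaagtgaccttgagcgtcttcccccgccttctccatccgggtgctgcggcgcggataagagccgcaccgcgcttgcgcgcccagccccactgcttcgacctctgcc

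Motifs of 3 factors known from promoters of respiratory genes were looked up on both strands. The NRF1 motif, GCGCA followed directly by its reverse complement TGCGC, stood in 5 of the 64 member promoters (7.81%), against 0.971% of all 32851 promoters in the table. Those were the promoters of Atp5g2, Atp5k, Cox6a1, Ndufa11 and Uqcrc1. The YY1 motif AAGATGGCG stood in 7 (10.9%, against 1.40% of all), of which 5 were complex I genes (Ndufa9, Ndufc1, Ndufs4, Ndufs6 and Ndufs7) and 2 complex V genes (Atp5j and Atp5j2). The ETS motif CCGGAAG stood in 14 (21.9%, against 8.86% of all), and its last letters AAG can overlap the YY1 motif. A match describes the letters only. Members without a matched entry included Ndufs1, Atp5f1, Uqcrc2, Cox4i1, Uqcrq, Atp5s, Atp5mpl, Uqcrb, Cox6c, Ndufb9, Atp5o-1, Ndufa2, Atp5a1, Atp5l-ps1, Atp5l-ps2 and Atp5l2-ps.

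Over all cells the members together took 512.3 CP10K, and the mitochondrially encoded subunits took 515.4. Complex I summed to 150.6, complex III to 59.8, complex IV to 148.6 and complex V to 153.2 CP10K. The total was 522.2 in set 0 and 502.9 in set 1. The genes with the most tags in each complex are named here. Cox4i1 (an early-assembling subunit around the catalytic core) had 34.5 CP10K and Cox8a, a small complex IV subunit, 20.9. In complex V, Atp5d of the central stalk had 17.9 and Atp5g1 16.8. In complex III, the hinge protein gene Uqcrh had 13.3 and Uqcrq 12.6. Under complex I stood Ndufa4, at 11.7, whose protein is now placed in complex IV, and the accessory subunit Ndufb9, at 10.9.

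Cells with high Fabp1 carried more respiratory chain transcript than cells with low Fabp1, in all 4 complexes. The summed level of the members was 455.4 CP10K in cells with Fabp1 below 40 (4093 cells), 507.6 at 40 to 100 (1136 cells) and 548.1 above 100 (6642 cells). Complex IV stood at 127.9, 144.4 and 162.0 CP10K over these bins. Complex I stood at 136.3, 149.5 and 159.7, complex III at 51.8, 59.2 and 64.9, and complex V at 139.4, 154.6 and 161.6. Cell to cell, the summed level was 548 ± 84.1 CP10K above 100 and 455 ± 81.3 below 40 (SD over cells), so the distributions overlapped. In set 0 the total was 456.8, 498.4 and 566.5, and in set 1 it was 456.3, 522.2 and 528.5. The sets were thus close in the lowest bin and apart in the highest, but they differed in Fabp6. At 40 to 100, median Fabp6 was 9.64 CP10K in set 0 and 0 in set 1. In cells with Fabp6 below 10 and no Mki67 or Top2a, the total was 472, 572 and 594 in set 0. In such cells of set 1 it was 458, 526 and 534, so set 0 was also higher in the middle bin. In set 1 complex V was not highest in the top bin, at 144.2, 163.6 and 161.9. Counting error was small beside these steps: complex I took 160.8 of 10000 summed UMIs (exact Poisson 95% interval 160.6 to 160.9) above 100 and 138.0 (137.7 to 138.2) below 40.

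**Figure D1:**
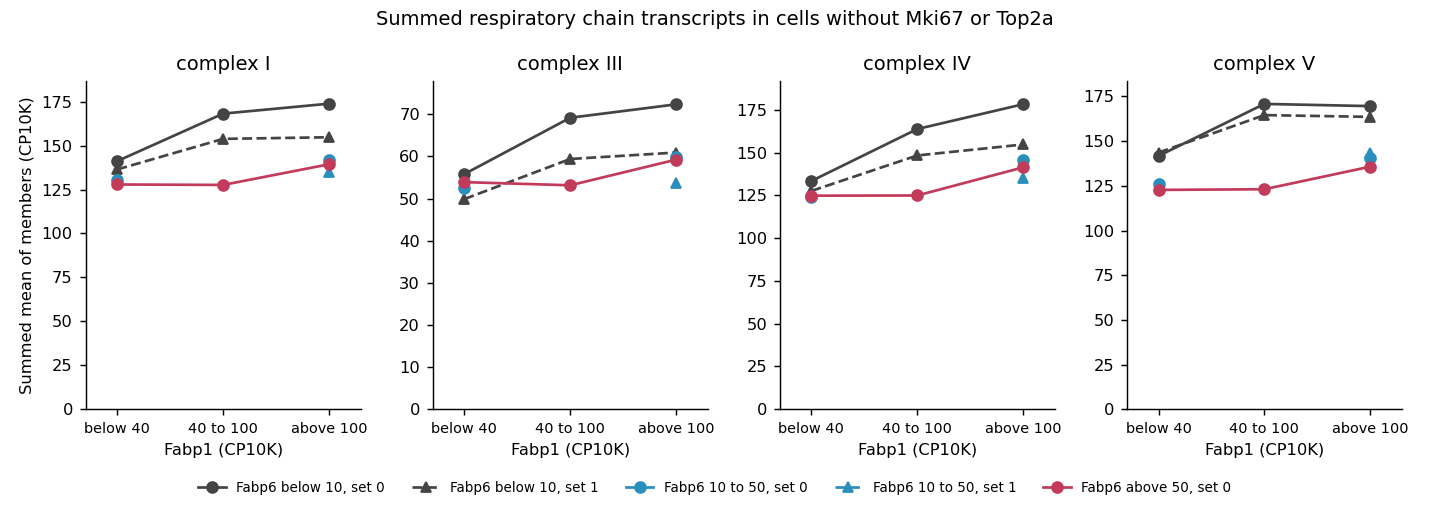
Summed mean level of the members of each complex (CP10K, vertical axis) over the Fabp1 bins, in cells without Mki67 or Top2a, by Fabp6 bin and set, with groups under 50 cells left out. With Fabp6 below 10, set 0 lies above set 1 (594 and 534 CP10K over the 4 complexes with Fabp1 above 100), except complex V with Fabp1 below 40 (141.7 and 143.6), and cells with Fabp6 above 50 lie lower than set 0 cells with Fabp6 below 10.

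Gene by gene, the shift was small and shared. The median log2 ratio of the 71 members, Fabp1 above 100 over below 40, was 0.27, against -0.17 over all 5663 genes counted, and the interquartile range was 0.22 against 0.79. Above 0 stood 67 of 71 members, where 2163 of the 5663 genes did. The members' count dropped to 51 of 71, with a median of 0.12, under another scaling. There, cells were scaled to a total without mitochondrial, ribosomal protein and haemoglobin genes (the reduced total). That scaling moved the median of the same 5663 genes to -0.30. The distance of the members from the median of those genes was 0.41 to 0.43 under 3 scalings. From the median of the genes counted in each setting, it was 0.32 with a minimum of 1 CP10K. It was 0.34 in set 1 alone and 0.49 in set 0 alone. Members and all genes were not matched by level, for the medians or the interquartile ranges. The complex medians were 0.21 for I, 0.29 for III, 0.29 for IV and 0.23 for V. Complex IV had the narrowest range of the 4 complexes, from 0.25 for Cox8a to 0.45 for Cox4i1, and 11 of its 11 members were above 0 under each of the 3 scalings. Over the Fabp1 bins, 54 of 71 members stepped up at both steps, 2 stepped down at both and 13 were highest in the middle bin. In set 0 those counts were 62, 3 and 3, and in set 1 they were 37, 1 and 33. The part of the unlike Fabp6 levels of the sets in these counts was not tested. The step counts have no count over all genes beside them.

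Only 1 member passed 1.5-fold, where 10.8% of all genes were higher and 24.4% lower by that much. It was Ndufa1 (ENSMUSG00000016427, chromosome X from 37187588 to 37191163 in GRCm38), an X-linked complex I subunit needed for assembly of the membrane arm. Ndufa1 had 1.12 CP10K above 100 against 0.670 below 40, a log2 ratio of 0.73. In set 0 it had 1.33 against 0.732, and in set 1 0.885 against 0.598. Its ratio was 0.86 in set 0 and 0.56 in set 1, and 0.58 under the reduced total, just short of 1.5-fold. At a log2 ratio of 0.32 or more in size, 21 members were higher and 0 lower, where all genes gave 19.6% and 38.7%.

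Other members with large ratios came from each complex. Uqcrq, the small ubiquinone-binding subunit of complex III, had 14.2 CP10K above 100 and 10.3 below 40 (log2 0.47). Cox4i1 had 38.6 and 28.3, and Atp5h, subunit d of the peripheral stalk, had 13.5 and 9.93 (log2 0.44). Uqcrc2, a core protein of complex III, was nearly flat at 4.45 and 4.34 (log2 0.04, and -0.11 under the reduced total). Against the trend, 4 members were lower above 100: Atp5g2 (log2 -0.32), Ndufs6 (-0.14), Ndufa8 (-0.13) and Ndufc2 (-0.02), the last 3 being accessory subunits of complex I. Summed enterocyte markers were 916 CP10K above 100 and 172 below 40, and summed markers of other cells were lower above 100: proliferating 1.29 and 7.40, goblet 0.808 and 7.47, enteroendocrine 0.117 and 3.10, Paneth 0.058 and 1.02, and stem 0.019 and 0.570. The enterocyte list includes Fabp1 itself, so part of its difference follows from the grouping. The part of this mixture of cell types in the ratios was not tested. Within 10% of a cut lay 210 cells at 40 (1.77%) and 365 at 100 (3.07%).

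**Figure D2:**
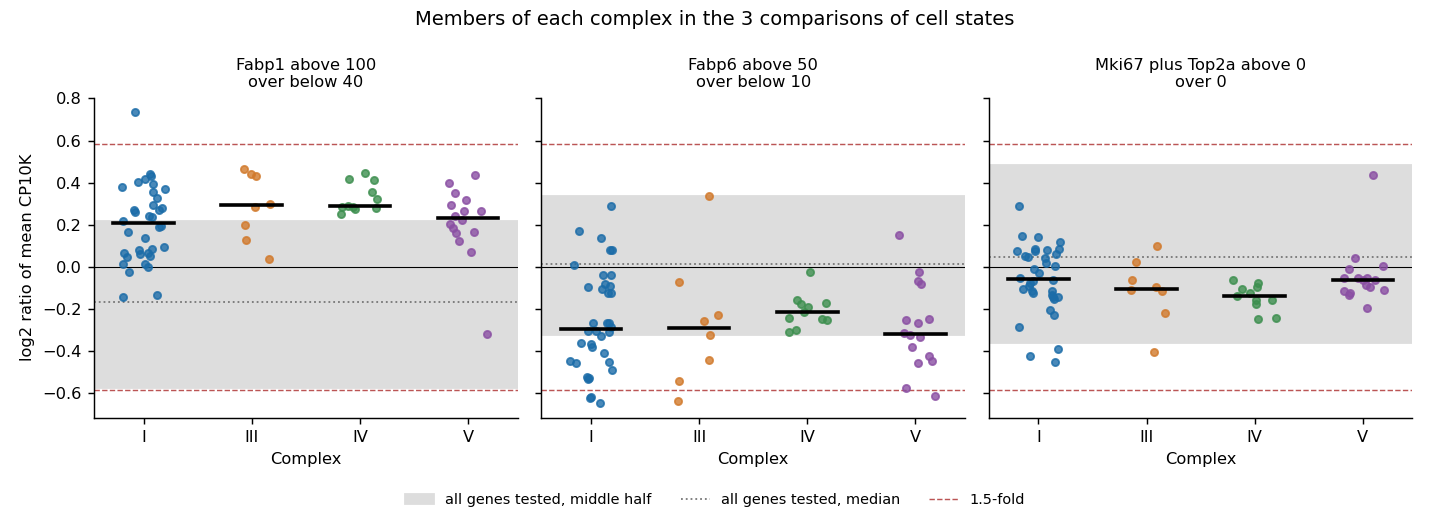
Log2 ratio of mean CP10K of each member (points) by complex, in the comparisons by Fabp1, Fabp6 and Mki67 plus Top2a, with the median (dotted line) and the interquartile range (grey band) of all genes and dashed lines at 1.5-fold. The members sit in a band narrower than that of all genes, mostly above 0 for Fabp1, with 67 of 71 there (51 under the reduced total), and mostly below 0 for Fabp6, with 63 of 71 there. Of all genes, 2163 of 5663 were above 0 for Fabp1 and 2671 of 5488 below 0 for Fabp6.

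Cells with high Fabp6, a marker of the ileum, carried less respiratory chain transcript than cells with little Fabp6. The members summed to 527.6 CP10K with Fabp6 below 10 (9454 cells), 460.4 at 10 to 50 (1103 cells) and 445.7 above 50 (1314 cells). Complex I stood at 155.1, 135.4 and 131.7 over these bins, complex III at 61.1, 54.9 and 55.0, complex IV at 152.6, 134.8 and 130.9, and complex V at 158.8, 135.3 and 128.1. The step lay mainly between the lowest and the middle bin. Of the cells above 50, 84.3% were in set 0, and only 27 cells of set 1 without a shared barcode were above 50. The values within set 0 were 552.9, 461.5 and 447.6, and in set 1 505.4, 455.5 and 445.4. Cells above 50 also had less Fabp1, with a median of 69.8 CP10K against 157 below 10. Among cells without Mki67 or Top2a, set 0 cells with Fabp6 above 50 stood at 429, 429 and 476 CP10K over the Fabp1 bins, against 472, 572 and 594 with Fabp6 below 10.

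The median log2 ratio of the members, Fabp6 above 50 over below 10, was -0.27, against 0.02 over all 5488 genes counted. Below 0 stood 63 of 71 members, where 2671 of the 5488 genes did. Within set 0 alone the members' count was 68 of 71, with a median of -0.33, where 2491 of 5409 genes stood below 0. The complex medians over all cells were -0.29 for I, -0.29 for III, -0.21 for IV and -0.32 for V. Within set 0 they were -0.31, -0.40, -0.33 and -0.35, so complex IV was not the least lowered there. Over all cells, 5 of the 71 were lower by 1.5-fold or more and 0 higher, where 13.7% of all genes were lower and 12.7% higher. The 7 core subunits of complex I, which carry its flavin, iron-sulphur clusters or quinone site, were all below 0, from -0.62 to -0.30. The peripheral stalk of ATP synthase had a median of -0.44. The 3 core and Rieske proteins of complex III had one of -0.54, or -0.47 within set 0. Members with transcripts of at most 700 bases had a median of -0.16 by Fabp6, the same as the -0.16 of all 190 genes that short. Longer members had -0.31, where longer genes had 0.02. Within set 0 the shorter members had -0.33 against -0.28 of all short genes, and the longer ones -0.32 against 0.06. Lower short transcripts were thus not particular to the members.

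The members past 1.5-fold came from 3 complexes. Ndufc2 (ENSMUSG00000030647, chromosome 7 from 97400003 to 97407802), an accessory subunit of the membrane arm, had 3.02 CP10K above 50 against 4.73 below 10 (log2 -0.65). The Rieske iron-sulphur protein gene Uqcrfs1 had 3.00 against 4.66 (log2 -0.63). The core subunit gene Ndufv2 had 1.996 against 3.08 (log2 -0.62). Atp5g2 had 2.53 against 3.86 (log2 -0.61). Within set 0 the ratios of these members ran from -0.62 to -0.54, and Ndufa5, an accessory subunit, was the lowest member there (log2 -0.62). In set 0, 4 members were lower by 1.5-fold, where 11.7% of all genes were lower and 13.2% higher. At a log2 ratio of 0.32 in size over all cells, 27 members were lower and 1 higher, with 25.2% and 25.9% of all genes.

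Higher with Fabp6 was Uqcrq, at 15.4 CP10K above 50 against 12.2 below 10 (log2 0.34, and 0.15 within set 0, at 15.8 against 14.3). Ndufv3, an accessory subunit of the NADH-binding module, had a ratio of 0.29 (0.13 within set 0). Atp5e, the epsilon subunit of the central stalk, had 0.15 over all cells but -0.06 within set 0. In complex IV the range ran from -0.31 for Cox5a to -0.02 for Cox7a2l (-0.42 for Cox7b to -0.01 for Cox7a2l within set 0). In both, 0 of 11 members were above 0. Over the Fabp6 bins, 49 of 71 members stepped down at both steps, 5 stepped up at both and 17 were lowest in the middle bin. Here too, no count over all genes was made for the steps. Summed markers above 50 and below 10 were 562 and 613 for enterocytes, 138 and 7.45 for the ileum, 1.11 and 4.12 for proliferation, and 0.224 and 1.46 for enteroendocrine cells. The ileum list includes Fabp6 itself, so part of its difference follows from the grouping. The part of these cell types in the ratios was not tested.

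Cells with a UMI of Mki67 or Top2a differed little in the respiratory chain from cells with none. The members summed to 484.6 CP10K in the 2211 cells with such a UMI and 518.6 in the 9660 without. The sums were 144.4 and 152.1 for complex I, 54.8 and 61.0 for complex III, 136.4 and 151.3 for complex IV, and 148.9 and 154.2 for complex V. The median log2 ratio was -0.09 over the members and 0.05 over all genes, and turned to 0.04 for the members under the reduced total, where that of the same 5689 genes was 0.16. The members' median thus lay below that of all genes by 0.13 as deposited and by 0.12 under the reduced total. Above 0 stood 20 of 71 members, where 3020 of the 5689 genes did, and 50 of 71 members under the reduced total. Complex IV had 0 of 11 members above 0, from -0.25 for Cox4i1 to -0.06 for Cox7b, though 4 of 11 stood above 0 under the reduced total. Past 1.5-fold stood 0 of 71, where 20.9% of all genes were higher and 15.3% lower.

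At a log2 ratio of 0.32 in size, 1 member was higher and 4 lower, where 33.1% of all genes were higher and 26.7% lower. The higher member was Atp5g2, at 4.61 CP10K with a UMI and 3.40 without (log2 0.44). Lower were Ndufv3 at 3.18 and 4.34 (log2 -0.45), Ndufa6 at 4.79 and 6.42 (-0.42), Uqcrq at 10.0 and 13.3 (-0.41) and Ndufa1 at 0.743 and 0.976 (-0.39). All 5 had the same sign in both sets, Atp5g2 with 0.50 in set 0 and 0.37 in set 1. The groups differed widely in enterocyte genes, with summed markers of 254 and 690 CP10K and median Fabp1 of 8.75 and 180. Within cells of Fabp1 below 40 and Fabp6 below 10, the median was 0.02 for the members and -0.004 for all genes, so the members did not lie below all genes there. Of the cells with a UMI, 38.4% had only 1, so the class holds cells near its cut. Thinned to 8000 UMIs a cell, the share with such a UMI was 28.1% with Fabp1 below 40 (exact 95% interval 26.7% to 29.5%), 11.9% at 40 to 100 and 3.18% above 100 (2.78% to 3.64%). Unthinned it was 36.8%, 20.1% and 7.15%, with median UMIs of 19532, 21749 and 24222.

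The c-ring genes parted from each other in all of these comparisons. Atp5g2 (ENSMUSG00000062683, chromosome 15 from 102662864 to 102672352, minus strand), whose RefSeq window above holds the NRF1 motif, had 4.10, 3.94 and 3.29 CP10K over the Fabp1 bins. In set 0 these were 3.78, 3.42 and 3.00, and in set 1 4.54, 4.46 and 3.62, so the order was the same in both. Atp5g3 went the other way by Fabp1, with a log2 ratio of 0.32. Atp5g1 was between them, at 0.12, or -0.02 under the reduced total. As a share of the summed level of the 3 genes, Atp5g2 took 15.6%, 13.6% and 11.5% over the Fabp1 bins. Atp5g3 took 24.2%, 25.5% and 27.9%, and Atp5g1 60.2%, 60.9% and 60.6%. The share of Atp5g2 was 16.3% in cells with Mki67 or Top2a and 12.3% in cells without. By Fabp6, the log2 ratios were -0.38 for Atp5g1, -0.61 for Atp5g2 and -0.31 for Atp5g3. Of the non-zero values of Atp5g2, 43.2% were not whole UMIs, as arise where reads are divided between genes, so its level is less certain than that of Atp5g1 (1.11%) or Atp5g3 (0%). The same holds for Ndufb4 (31.0%) and Atp5l (14.7%).

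**Figure D3:**
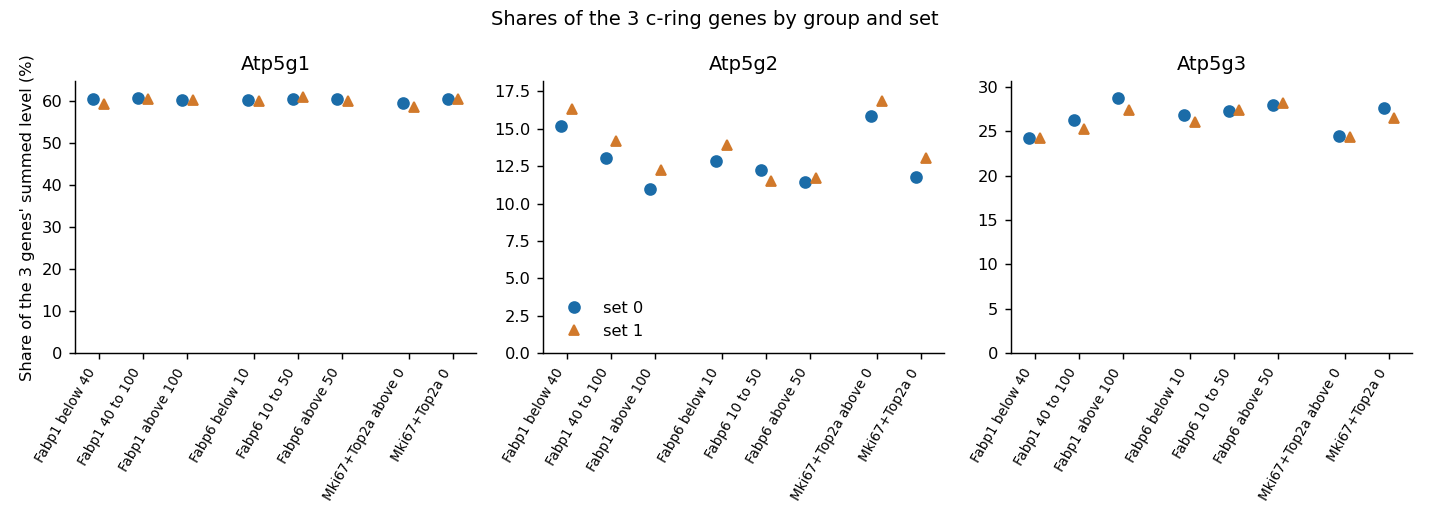
Share of the summed level of Atp5g1, Atp5g2 and Atp5g3 (percent, vertical axes starting at 0) in each group of cells, for set 0 and set 1 as separate points. The share of Atp5g2 steps down over the Fabp1 bins in set 0 (15.1%, 13.1% and 10.96%) and in set 1 (16.3%, 14.2% and 12.2%).

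Among other related genes, Cox7a2 and Cox7a2l, small subunits tied to complex IV and to supercomplexes, had log2 ratios of 0.41 and 0.28 by Fabp1 and -0.18 and -0.02 by Fabp6. Ndufa4 had 0.33 by Fabp1 and -0.37 by Fabp6.

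Between the sets, subunit classes of the same complex differed in direction. Set 0 over set 1, the median log2 ratio was 0.07 for the members and -0.05 for all genes. Of the members 38 were above 0 and 33 below, where 2095 of 5289 genes were above 0 and 3194 below. Past 1.5-fold were 2 members, both higher in set 0, where 3.74% of all genes were higher and 2.63% lower. Atp5k (ENSMUSG00000050856, chromosome 5 from 108433244 to 108434448), subunit e at the dimer interface of ATP synthase, had 2.23 CP10K in set 0 and 1.40 in set 1 (log2 0.67). Ndufa3 (ENSMUSG00000035674, chromosome 7 from 3617373 to 3620327), a small membrane-arm subunit, had 1.49 and 0.945 (log2 0.65). At a log2 ratio of 0.32 in size, 14 were higher and 2 lower, Ndufc2 (3.92 and 5.05 CP10K, log2 -0.36) and Ndufa8 (3.05 and 3.85, log2 -0.33), where all genes gave 10.1% and 13.5%. The genotype, the embryos and the library of each set cannot be told apart.

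By role, a grouping made after these values were seen, core, head and c-ring subunits were mostly lower in set 0. Most other small subunits were higher. All 7 complex I core subunits were below 0, from -0.24 for Ndufv2 to -0.10 for Ndufs8, while the 29 others counted under complex I had a median of 0.21 with 19 above 0. All 3 core and Rieske proteins of complex III were below 0 (median -0.19) and its 5 small subunits above (median 0.25, Uqcrq highest at 14.6 CP10K in set 0 and 10.4 in set 1). In complex V, 4 of 5 head and central stalk genes were below 0 and Atp5e was at 0.48, the 3 c-ring genes were below 0 (median -0.14), and the 4 other membrane subunits above (median 0.42). The peripheral stalk genes stood at -0.20 (Atp5f1), -0.19 (Atp5o-1), -0.09 (Atp5h) and 0.07 (Atp5j). Complex IV, all small subunits here, had 8 of 11 above 0 (median 0.20).

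Among the members, the ratio was lower for longer coding sequences. Over the 70 members with a coding length in GENCODE M21, Spearman's rho of coding length and log2 ratio was -0.76, a description across genes that share the same libraries. Over 5141 genes it was 0.06. The 43 members with at most 450 coding bases had a median ratio of 0.24 and the 27 longer ones -0.15, where all genes gave -0.00 and -0.06. By transcript length, rho was -0.55 over 70 members and 0.09 over 5140 genes. Members with transcripts of at most 700 bases had a median of 0.24 and longer ones -0.11. All genes moved the same way in that split, with 0.14 (189 genes) and -0.06, so higher short transcripts were not particular to the members. At the ends of the range, Ndufs1 with 2181 coding bases was at -0.20 and Atp5e with 156 at 0.48. Ndufv3 (1404 bases, 0.41) and Ndufc2 (360 bases, -0.36) did not follow it. The coding length split was also made after the values were seen.

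**Figure D4:**
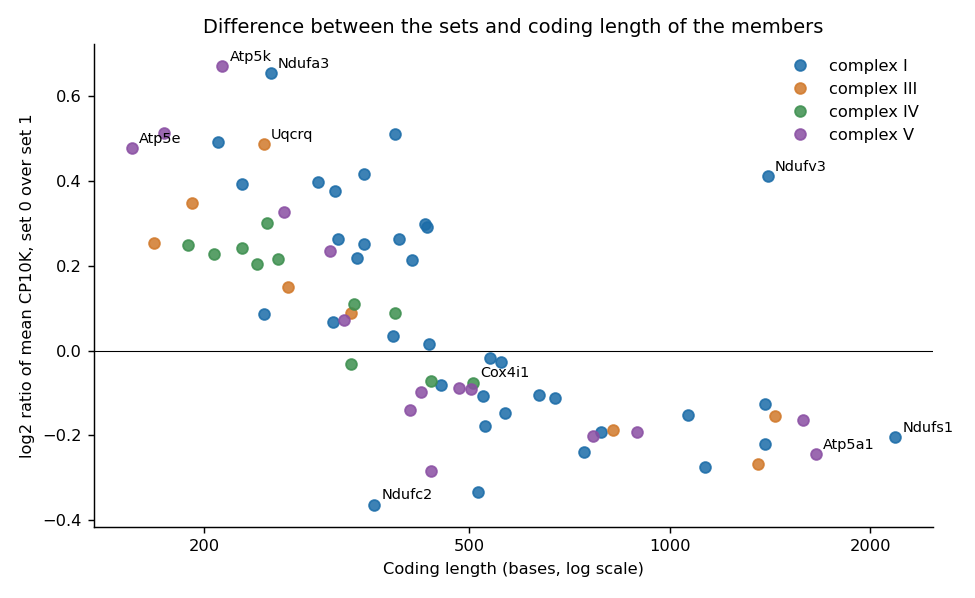
Log2 ratio of mean CP10K, set 0 over set 1, of each member against its coding length in bases (log axis), coloured by complex. Short members lie mostly above 0 and long ones mostly below (rho -0.76 over 70 members), with Ndufv3 and Ndufc2 away from the trend.

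Within cells of like state the complex I classes differed in the same direction by median, though not in every member. In 7 strata of matched Fabp1, Fabp6 and Mki67 plus Top2a class with at least 50 cells in each set, the median of the members was 0.05 to 0.17. The complex I core subunits had medians of -0.16 to -0.07 (-0.19 without matching) and the other complex I members 0.10 to 0.29 (0.21 without matching). Of the core subunits, Ndufs8 was above 0 in 4 of the 7 strata, and Ndufs7 and Ndufv1 in 1 each. The c-ring genes Atp5g1 and Atp5g3 were also above 0 in 1 stratum each. In every stratum 36 of the 71 members were above 0 and 16 below. Among the 16 were Ndufs1, Ndufs3, Ndufv2, Ndufa8, Ndufc2, Ndufb10, Uqcrc1, Uqcrc2, Uqcrfs1, Atp5a1, Atp5b, Atp5c1, Atp5f1, Atp5g2 and Atp5o-1. The counts of 36 and 16 have no count over all genes beside them, and all 7 strata compare the same 2 sets. With Fabp1 above 100, Fabp6 below 10 and no Mki67 or Top2a, the median was 0.17 for the members and -0.09 for all genes. Set 0 cells had a median of 23656 UMIs and set 1 cells 22374, and the part of depth in these ratios was not tested.

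Assembly factors of the 4 complexes, from a list of 43 columns, had lower ratios than the subunits by Fabp1 and higher ones by Mki67 plus Top2a. By Fabp1, 32 were counted, with a median log2 ratio of -0.18, close to the -0.17 of all genes, and 9 stood above 0. By Fabp6, 31 were counted, with a median of -0.36 and 5 above 0, and by Mki67 plus Top2a 32, with a median of 0.22 and 23 above 0. Of all genes, 2163 of 5663, 2817 of 5488 and 3020 of 5689 were above 0 in the same order of comparisons. The assembly factors of complex I were the farthest out, with medians of -0.50 by Fabp1 (1 of 10 above 0), -0.62 by Fabp6 (0 of 9) and 0.40 by Mki67 plus Top2a (9 of 10). Ndufaf2, a complex I assembly factor, had 0.194 CP10K with Fabp1 above 100 against 0.486 below 40 (log2 -1.28), and 0.621 in cells with a Mki67 or Top2a UMI against 0.237 without (log2 1.36). Of 13 regulators of mitochondrial biogenesis listed, 4 were counted, 2 above and 2 below 0 in each of these comparisons. Tfam, which packages mitochondrial DNA and helps start its transcription, had 0.287 against 0.488 CP10K by Fabp1 (log2 -0.75) and 0.607 against 0.308 by Mki67 plus Top2a (log2 0.96). Polg, the mitochondrial DNA polymerase, stood opposite, with 0.564 against 0.356 by Fabp1 (log2 0.65) and 0.295 against 0.523 by Mki67 plus Top2a (log2 -0.81).

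**Figure D5:**
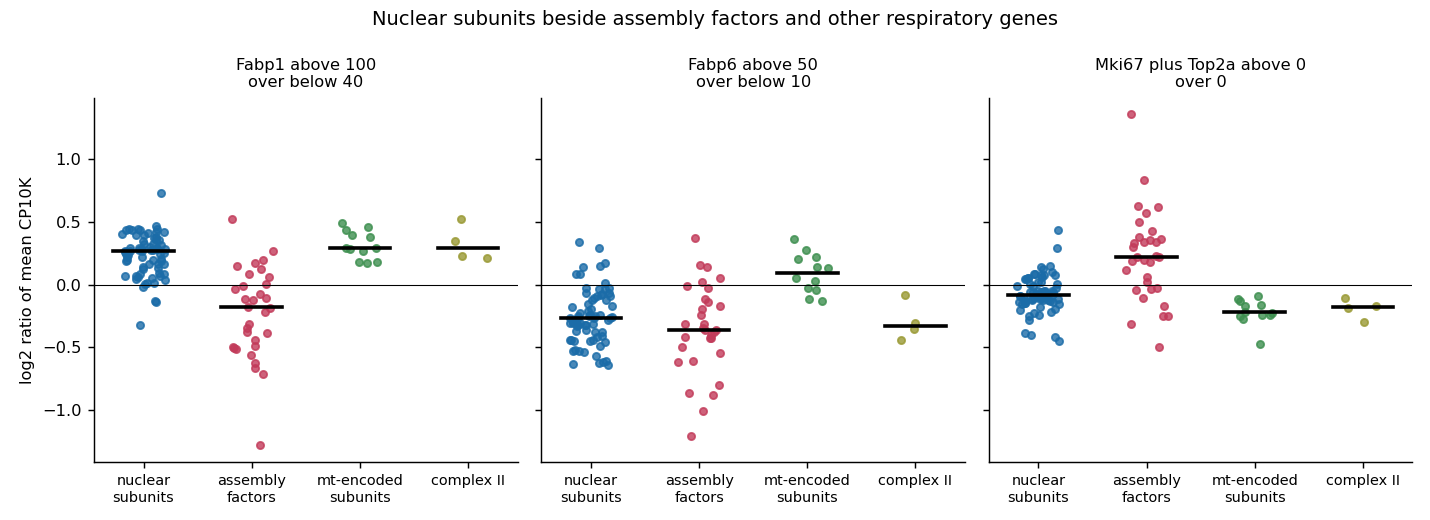
Log2 ratio of mean CP10K of nuclear subunits, assembly factors, mitochondrially encoded subunits and complex II genes (points, 1 per gene, with the median of each list) in the comparisons by Fabp1, Fabp6 and Mki67 plus Top2a. By Fabp1 the subunits have a median of 0.27 and the assembly factors one of -0.18, and by Mki67 plus Top2a the medians are -0.09 and 0.22 (0.04 and 0.34 under the reduced total).

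Complex II, which is wholly nuclear encoded and was outside the rule, had medians of 0.29 by Fabp1 (4 of 4 genes above 0) and -0.33 by Fabp6 (0 of 4). Its iron-sulphur subunit gene Sdhb had 6.82 CP10K with Fabp1 above 100 against 4.73 below 40. Cycs, which encodes the electron carrier cytochrome c, had 10.96 against 7.34 (log2 0.58). Cox7a1, an isoform best known from heart and skeletal muscle, had 0.540 against 0.241 (log2 1.13). Cyc1, cytochrome c1 of complex III, had a log2 ratio of -0.66 by Fabp6, at 4.21 CP10K above 50 against 6.67 below 10.

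The mitochondrially encoded subunits stood with the nuclear ones by Fabp1 and apart from them by Fabp6. By Fabp1, 12 of 12 were above 0, with a median of 0.29, and by Fabp6 8 of 12, with a median of 0.09 (6 of 12 and 0.03 under the reduced total). The ratio of their sum to that of the nuclear members was 0.95, 1.03 and 1.03 over the Fabp1 bins. The sets differed in this, with 0.98, 1.08 and 1.00 in set 0 and 0.90, 0.98 and 1.08 in set 1. Over the Fabp6 bins the ratio was 0.96, 1.19 and 1.21, and 0.93, 1.16 and 1.21 within set 0. By complex, the mitochondrial to nuclear ratio over the Fabp6 bins was 0.59, 0.74 and 0.76 for I, 0.67, 0.76 and 0.73 for III, 1.81, 2.28 and 2.35 for IV and 0.62, 0.73 and 0.72 for V. It was 0.93 in cells with Mki67 or Top2a and 1.02 in cells without.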

How the data were processed

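Per the labels' protocols, sorted epithelial cells were fixed in methanol and prepared with 10x Genomics 3′ chemistry, with 6000 cells used per library and 10000 reads sequenced per cell. Builds GRCm38 and mm10, Scanpy 1.6.0, alevin and Salmon 0.14.1 are listed per the submitters' processing notes. What filters on cells were used is not stated there. The authors deposited 1 table of a linear signal (11871 cells by 25663 genes), other than counts, scaled to 10000 per cell. UMIs were recovered by dividing by the most frequent non-zero value of each cell, after which 94.9% of non-zero values in the median cell were whole within 0.01 (84.3% in the lowest). The recovered totals lie above the stated reads per cell, so values that rest on them (depth, intervals, thinned shares, UMI cuts and whole-UMI shares) depend on this recovery.

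Means of CP10K were formed per group of cells with Python 3.11.15, numpy 2.4.6, scipy 1.17.1, pandas 2.3.3 and matplotlib 3.10.9, and the ratio step was checked on simulated data. Poisson and Clopper-Pearson 95% intervals cover counting error only. Genes are named by level (the 2 highest of each complex), by size of ratio (the lowest and the highest of each complex, and all past 1.5-fold) and as paralog sets; others were chosen after their values were seen. The members and lists were chosen with earlier results of these data known. Gene positions and lengths come from GENCODE M21, in which 74 members matched 1 gene. Results for 1 member by name are not reported here.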

Additional observations from a re-analysis of the deposited data

Results flagged for a closer look

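Ndufa1 differed in direction between the sets in the comparison by Fabp6. Its log2 ratio, Fabp6 above 50 over below 10, was -0.37 in set 0 (1108 cells over 4108) and 0.12 in set 1 (27 cells over 4863). It stands out because the sets moved in opposite directions; the difference was not tested, and the set 1 value rests on the 27 cells.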

How the results depend on the processing

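Of the complex sums and named genes, 0 of 68 complex values and 2 of 221 gene values changed sign by Fabp1, 0 of 76 and 6 of 266 by Fabp6, 4 of 72 and 12 of 234 by Mki67 plus Top2a, and 1 of 52 and 2 of 168 between the sets. These totals include settings that could not change a sign. A changed minimum or fold left all of these values as they were, and a changed pseudocount left the complex values as they were. The counts of members past the threshold were small and moved with it. By Fabp1 the count of 1 became 21 at a log2 ratio of 0.32, and 0 at 2-fold, in set 1 alone and under the reduced total. By Fabp6 the count of 5 became 28 at a log2 ratio of 0.32, 0 at 2-fold, 10 under the reduced total (16.9% of all genes lower, 10.7% higher), 1 in set 1 alone (22.1% and 14.7%) and 15 in cells with Fabp1 at 40 to 100 and no Mki67 or Top2a (18.7% and 18.7%), with 0 higher in these last 3 settings; within set 0 it was 2 with Fabp1 above 100 (4.39% lower) and 1 with Fabp1 below 40 (18% lower), both without Mki67 or Top2a, settings chosen after seeing the data. By Mki67 plus Top2a the count of 0 became 5 at a log2 ratio of 0.32, 1 with at least 2 UMIs (21.6% of all genes lower) and 3 with at least 2 CP10K of the pair (23.8% lower), with 0 higher in both settings. Between the sets the count of 2 became 16 at a log2 ratio of 0.32, 0 at 2-fold and 6 in the stratum of Fabp1 above 100, Fabp6 below 10 and no Mki67 or Top2a (6 higher, where 3.7% of all genes were higher and 3.68% lower), also chosen after seeing the data. The cause was not tested. The sums of complexes I and V by Mki67 plus Top2a were 0.05 and 0.07 (log2) under the reduced total. No paired analysis was possible because both libraries are labelled replicate 1 and the cells carry no sample name.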
